A study of Homo sapiens with 3 samples.

Results

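INHBA, FST, TGFB1, TGFBI, SMAD3, SMAD7, ID1 and ID3, genes of activin and TGF-beta signalling, were followed in RNA-seq libraries of MTAC-P cells. The 8 genes were found by mapping the RefSeq accession of each table entry to a current gene symbol and summing FPKM (fragments per kilobase of transcript, scaled to the mapped fragments of the library) over the entries of a symbol, and they are 8 of 26555 genes in the tables. They were chosen with the FPKM of these same libraries known, so their levels and differences are given as a description, with no test. MTAC-P is a human lung cancer cell line that was derived from PC9 and resists EGFR tyrosine kinase inhibitors. Its cells, grown in serum-containing medium, carried a knockdown labelled shBCAT1 in 2 libraries (called shBCAT1 1 and shBCAT1 2 throughout, as labelled) or shLuciferace in 1 library (the control). Where a pair of values is given for the shBCAT1 libraries, that of shBCAT1 1 stands first. All the libraries thus share the line, its drug resistance and a knockdown construct, and cells with none were not analysed here. Neither hairpin sequences nor separate cultures are named in the labels. The spread between the shBCAT1 libraries may thus be technical, or lie between cultures or between hairpins, and these cannot be told apart. The series' design text speaks of triplicates, and no more than these 3 libraries were analysed here. In bulk RNA, fewer cells that express a gene and less of its RNA per cell cannot be told apart.

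Activins are dimers of inhibin beta subunits, and INHBA encodes the subunit of activin A. Activins and TGF-beta bring together type II and type I receptor kinases that phosphorylate SMAD2 and SMAD3. Those SMADs then join SMAD4 and act on genes such as TGFBI and SMAD7, while follistatin (FST) binds activin outside the cell and blocks it. BMPs signal through SMAD1 and SMAD5, with the ID genes among their best-known targets. ID proteins bind E proteins and keep them off DNA. In epithelial cancers TGF-beta is known both for growth arrest and for the transition to a mesenchymal state.

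BCAT1, the gene aimed at, was at 1.05 FPKM (bounds 0.836 to 1.27) in the library labelled shBCAT1 1 and at 0.241 FPKM (0.162 to 0.325) in the one labelled shBCAT1 2, against 0.213 FPKM (0.134 to 0.297) in the control. Its value goes against the label of the first of these, so each direction here compares libraries as labelled, without a measured loss of BCAT1 RNA. Total FPKM was 44313 for shBCAT1 1 and 46145 for shBCAT1 2, against 53898 for the control. Relative depth, read from FPKM per fragment, was 1.03 and 1.09 times the control. Epithelial markers (KRT8, KRT18, KRT19, EPCAM, CDH1 and 3 lung lineage genes) summed to 524 and 787 FPKM in the shBCAT1 libraries and 617 FPKM in the control. The lung lineage genes NKX2-1, NAPSA and SFTPB stayed at or below 0.224 FPKM in all of them, and the part of these shifts in the results was not tested. Fibroblast and endothelial markers summed to between 0.105 and 0.259 FPKM, with 5 of 7 fibroblast markers listed at 0 in all 3 libraries. The leukocyte list summed to between 3.68 and 3.82 FPKM, nearly all of it CD68, while PTPRC was listed at 0 in each.

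INHBA (chromosome 7, 41689003 to 41703108, hg38) was at 3.40 FPKM (bounds 2.73 to 4.07) in the library labelled shBCAT1 1 and 1.39 FPKM (0.977 to 1.81) in shBCAT1 2, against 4.52 FPKM (3.74 to 5.30) in the control. Bounds are the confidence limits deposited with each value. Those of INHBA were as wide as the counting error of 104 and 45 fragments in the shBCAT1 libraries, against 134 fragments in the control. Both libraries were below the control, and shBCAT1 2 lay apart from each of the other libraries, while the bounds of shBCAT1 1 overlapped those of the control. The value was 0.753 and 0.308 times the control, and the shBCAT1 libraries averaged 2.40 ± 1.42 FPKM (SD, n = 2).

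FST (chromosome 5, 53480434 to 53486474), whose product neutralises activin, had the same order of libraries. It was at 0.830 FPKM (0.468 to 1.20) in shBCAT1 1 and 0.424 FPKM (0.162 to 0.694) in shBCAT1 2, against 1.32 FPKM (0.823 to 1.82) in the control. The bounds of shBCAT1 2 lay below those of the control and overlapped those of shBCAT1 1. The value was 0.631 and 0.322 times the control.

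TGFBI (chromosome 5, 136028895 to 136063818) encodes a secreted matrix protein named for its induction by TGF-beta, and it ran the other way. It was at 0.769 FPKM (0.492 to 1.04) in shBCAT1 1 and 1.15 FPKM (0.821 to 1.48) in shBCAT1 2, against 0.486 FPKM (0.263 to 0.708) in the control. These values had the width of 31.0 and 49.0 fragments, against 19.0 fragments in the control. The value was 1.58 and 2.37 times the control, with the bounds apart in shBCAT1 2 and overlapping in shBCAT1 1.

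Promoters of INHBA and TGFBI are shown because their bounds in shBCAT1 2 lay apart from the control, INHBA lower and TGFBI higher. In shBCAT1 1 the bounds of both genes overlapped those of the control. Matches were sought in the 250 bases before the RefSeq start (GRCh38.p14), and the bases printed, 5′ to 3′ on the gene's strand, are those of this window that precede the locus in the files. They run over chr7:41703109-41703340 (minus strand) for INHBA and chr5:136028738-136028894 (plus strand) for TGFBI. For FST 195 of the 250 bases lie inside the locus of the files, and none are printed. Capitals mark matches, on either strand, to GTCT (AGAC on the other strand, the core that SMADs bind), GGCGCC (a GC-rich SMAD element), TGANTCA (AP-1) and CANNTG (the E-box bound by E proteins).
INHBA: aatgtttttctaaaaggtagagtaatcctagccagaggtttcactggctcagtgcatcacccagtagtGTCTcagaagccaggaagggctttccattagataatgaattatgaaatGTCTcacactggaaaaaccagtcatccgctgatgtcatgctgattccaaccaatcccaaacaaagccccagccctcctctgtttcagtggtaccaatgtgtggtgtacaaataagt
TGFBI: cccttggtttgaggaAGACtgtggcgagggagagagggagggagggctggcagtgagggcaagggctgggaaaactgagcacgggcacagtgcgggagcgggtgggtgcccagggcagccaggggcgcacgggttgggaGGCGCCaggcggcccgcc
Positions count back from the RefSeq start. INHBA held 2 matches to GTCT, at 182 and 134 bases before the start. FST held 3, the nearest from 37 to 34 bases before it, and an E-box from 164 to 159 that overlapped an AP-1 match from 160 to 154. TGFBI held 1 match to GTCT at 235 bases and GGCGCC from 111 to 106. Of the 8 members 6 held GTCT in this window, 2 GGCGCC, 1 TGANTCA and 3 CANNTG, where the shares of all 35116 promoters in the table were 77.5%, 16.4%, 6.57% and 61.8%. These matches describe letters only.

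Of the 8 members, 0 had bounds apart from the control in shBCAT1 1, and 2 lay below and 1 above it in shBCAT1 2. Among all 16443 genes above 0 in any library, 2.08% lay below and 0.608% above the control in shBCAT1 1, and 2.08% below and 3.06% above it in shBCAT1 2. Between the shBCAT1 libraries, INHBA was the 1 member with bounds apart, lower in shBCAT1 2 than in shBCAT1 1. In that comparison 0.59% of all genes were lower and 3.07% higher in shBCAT1 2. With both libraries required, 162 genes of 3889 at a mean of 1 FPKM or more lay below the control (4.17%) and 51 above it (1.31%), with 0 of the 5 members at that level among them. Without shBCAT1 2 these counts were 297 and 65, and without shBCAT1 1 they were 296 and 296. The shares describe all genes and, since the members were picked from these values, nothing is read from their count.

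**Figure D1:**
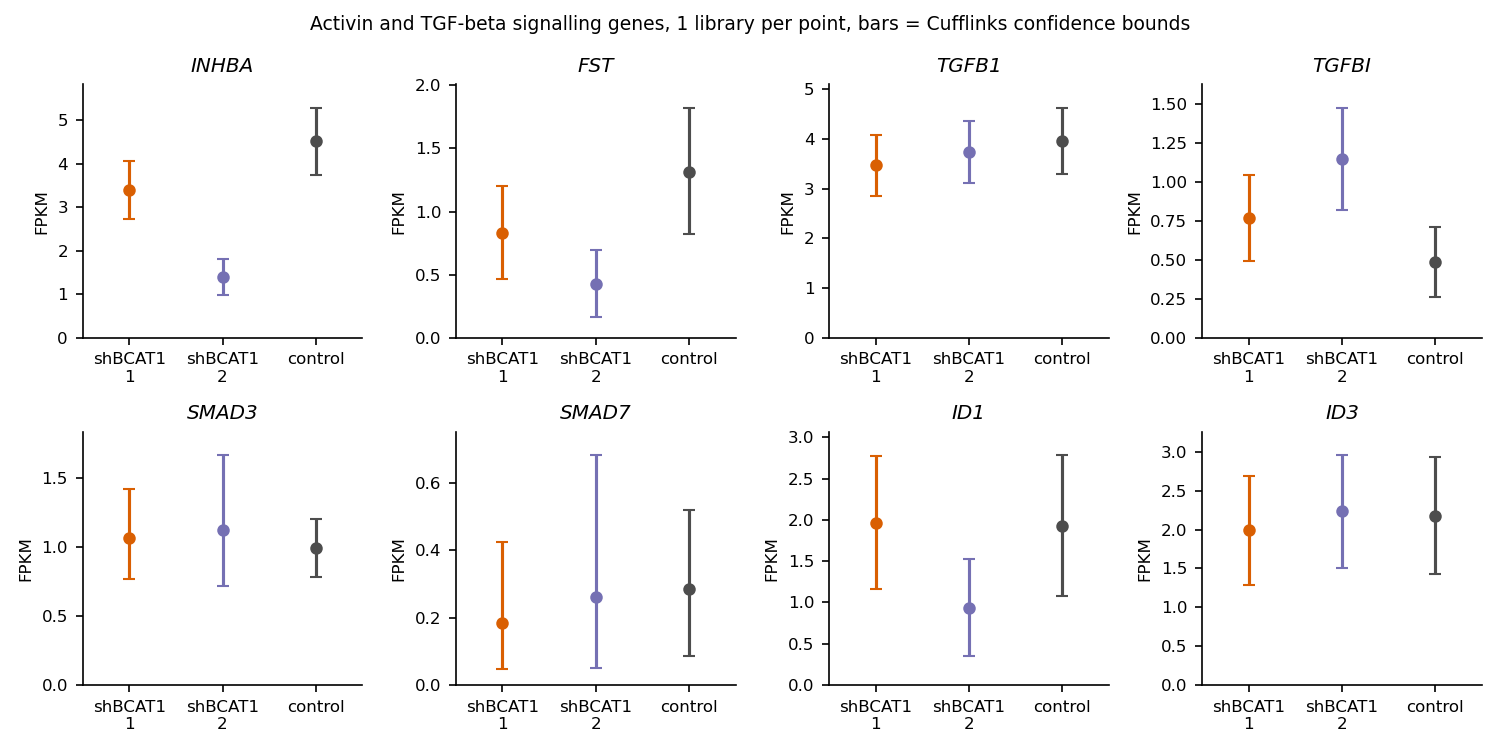
FPKM of each member (y axis, from 0) in the libraries shBCAT1 1, shBCAT1 2 and control (x axis), 1 point per library, with bars for the deposited confidence bounds. INHBA and FST are lowest and TGFBI highest in shBCAT1 2, at 1.39, 0.424 and 1.15 FPKM, against 4.52, 1.32 and 0.486 FPKM in the control.

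Among the other ligands, INHBB, which encodes the subunit of activin B, was at 1.72 and 1.79 FPKM in shBCAT1 1 and shBCAT1 2, against 1.86 FPKM in the control, with all bounds overlapping. INHBA stood at 1.98 ± 0.29 and 0.778 ± 0.14 times INHBB in the shBCAT1 libraries, against 2.43 ± 0.34 times in the control (SD of counting error). INHBA made up 66.4% and 43.8% of the FPKM of the 4 activin beta subunit genes in the shBCAT1 libraries, against 70.8% in the control. INHBC and INHBE were listed at 0 throughout. INHA, the alpha subunit that turns a beta subunit into an inhibin, was at 0.263 and 0.596 FPKM in the shBCAT1 libraries, against 0.162 FPKM in the control, on 5, 12 and 3 fragments, and its bounds overlapped.

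FSTL3, a relative of follistatin that also binds activin, exceeded FST in every library and had overlapping bounds. It was at 7.43 and 8.17 FPKM in the shBCAT1 libraries, against 7.52 FPKM in the control. FST made up 10.0% ± 2.1 and 4.93% ± 1.5 of the FPKM of both in the shBCAT1 libraries, against 14.9% ± 2.6 in the control. The ratio of INHBA to FST was 4.10 ± 0.99 and 3.28 ± 1.15 in the shBCAT1 libraries, against 3.43 ± 0.72 in the control, which differ by less than the counting error.

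**Figure D2:**
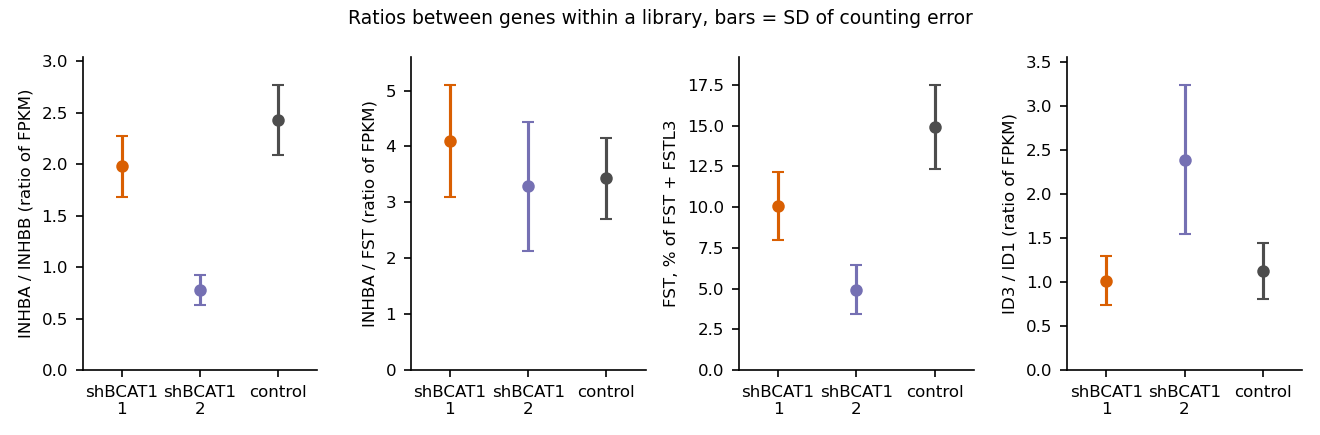
Ratios or shares of FPKM between genes (y axes, from 0) within each library (x axis: shBCAT1 1, shBCAT1 2, control), 1 point per library, with bars for 1 SD of counting error. INHBA over INHBB is 1.98 and 0.778 in the shBCAT1 libraries, against 2.43 in the control, while INHBA over FST lies between 3.28 and 4.10.

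TGFB1 (chromosome 19, 41330531 to 41353933), which encodes a TGF-beta ligand, had overlapping bounds in all libraries. It was at 3.47 FPKM (2.86 to 4.08) in shBCAT1 1 and 3.74 FPKM (3.12 to 4.36) in shBCAT1 2, against 3.97 FPKM (3.30 to 4.63) in the control, on 128, 146 and 142 fragments. The shBCAT1 mean of 3.61 ± 0.19 FPKM (SD, n = 2) lay inside the control's bounds. TGFB1 supplied 88.3% and 90.6% of the FPKM of TGFB1, TGFB2 and TGFB3 in the shBCAT1 libraries, against 86.5% in the control. TGFB2 was at 0.421 and 0.312 FPKM in the shBCAT1 libraries, against 0.540 FPKM in the control, and TGFB3 at 0.0396 and 0.0750 FPKM in the shBCAT1 libraries, against 0.0817 FPKM in the control. None of these sets of bounds lay apart.

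Of the 16 receptor and co-receptor genes, 0 reached a mean of 1 FPKM, and the median level was 0.0669 and 0.0487 FPKM in the shBCAT1 libraries, against 0.0560 FPKM in the control. The co-receptor ENG was the highest, at 0.521 and 1.13 FPKM in the shBCAT1 libraries, against 0.640 FPKM in the control. The TGF-beta receptor genes TGFBR1 and TGFBR2 were at 0.138 and 0.116 FPKM in shBCAT1 1 and 0.181 and 0.124 FPKM in shBCAT1 2, against 0.105 and 0.0751 FPKM in the control. ACVR1B, a type I receptor of activin, was at 0.178 and 0.350 FPKM in the shBCAT1 libraries, against 0.198 FPKM in the control. The bounds of TGFBR1, TGFBR2 and ACVR1B, with the width of 4.19 to 23.2 fragments, overlapped the control's, and no difference was detectable.

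SMAD3 (chromosome 15, 67065857 to 67195195), the signal carrier of activin and TGF-beta, was at 1.07 FPKM (0.771 to 1.42) in shBCAT1 1 and 1.13 FPKM (0.716 to 1.67) in shBCAT1 2, against 0.992 FPKM (0.782 to 1.21) in the control. The libraries overlapped throughout. SMAD3 was the highest of the 8 SMAD genes in each, with 57.3% and 52.9% of their summed FPKM in the shBCAT1 libraries, against 49.5% in the control. SMAD2 was at 0.0886 and 0.177 FPKM in the shBCAT1 libraries, against 0.113 FPKM in the control. SMAD4, the common partner, was at 0.0380 and 0.0641 FPKM in the shBCAT1 libraries, against 0.0776 FPKM in the control.

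SMAD7 (chromosome 18, 48919853 to 48950711), an inhibitory SMAD induced by the pathway, was at 0.185 FPKM (0.0487 to 0.424) in shBCAT1 1 and 0.263 FPKM (0.0496 to 0.684) in shBCAT1 2, against 0.286 FPKM (0.0862 to 0.521) in the control. Its bounds, combined over 4 entries, had the width of 2.40, 1.55 and 5.96 fragments, the fewest of any member. Those bounds overlapped between all libraries, and no difference was detectable. SMAD6, the other inhibitory SMAD, was at 0.289 and 0.319 FPKM in the shBCAT1 libraries, against 0.323 FPKM in the control.

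ID1 (chromosome 20, 31605283 to 31606514) was at 1.96 FPKM (1.16 to 2.77) in shBCAT1 1 and 0.935 FPKM (0.348 to 1.52) in shBCAT1 2, against 1.93 FPKM (1.08 to 2.79) in the control. Only shBCAT1 2 was low, at 0.485 times the control and on the width of 10.1 fragments, and its bounds overlapped those of both other libraries. ID3 (chromosome 1, 23557930 to 23559794) was at 1.99 FPKM (1.29 to 2.70) in shBCAT1 1 and 2.24 FPKM (1.51 to 2.96) in shBCAT1 2, against 2.18 FPKM (1.43 to 2.93) in the control, on 32.0, 38.0 and 34.0 fragments. ID3 over ID1 was 1.02 ± 0.28 and 2.39 ± 0.85 in the shBCAT1 libraries, against 1.13 ± 0.32 in the control. ID2 was listed at 0 in all 3 libraries and ID4 did not exceed 0.0362 FPKM. Of the E proteins, TCF3 was at 2.54 and 3.42 FPKM in the shBCAT1 libraries, against 2.77 FPKM in the control. The levels of TCF4 and TCF12 were low in all libraries and highest in shBCAT1 2, at 0.0978 and 0.0947 FPKM. The bounds of TCF3, TCF4 and TCF12 overlapped between all libraries.

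Entries of a gene divided its FPKM unequally between libraries. For FST, NM_013409 held 86.7% of the control's value and NM_006350 13.3%, at 0.175 FPKM (0 to 0.386), while in both shBCAT1 libraries NM_006350 was near 0 with upper bounds of 0.0681 and 0.0644 FPKM. For ID1, NM_181353 was near 0 in shBCAT1 1 and at 0.481 FPKM (0.0881 to 0.875) in shBCAT1 2, against 0.301 FPKM (0 to 0.642) in the control. The other ID1 transcript, NM_002165, was at 1.96 FPKM (1.16 to 2.76) in shBCAT1 1 and 0.454 FPKM (0.0173 to 0.891) in shBCAT1 2, against 1.63 FPKM (0.838 to 2.42) in the control. Its bounds in shBCAT1 2 lay below those of shBCAT1 1 and overlapped those of the control. SMAD3 came mainly from NM_005902, with 85.9% and 89.5% in the shBCAT1 libraries and 100% in the control. SMAD7 had most of its value on NM_001190821 in the shBCAT1 libraries (74.8% and 79.8%) and on NM_001190822 in the control (70.7%), with overlapping bounds for each. INHBA, TGFB1, TGFBI and ID3 had 1 entry each.

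**Figure D3:**
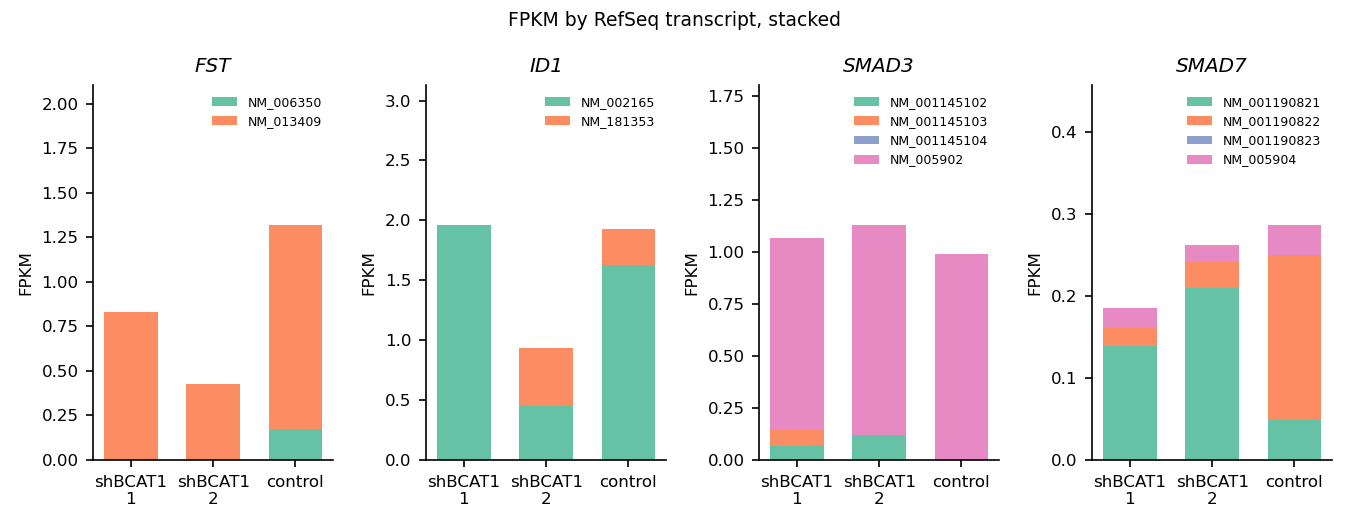
FPKM of FST, ID1, SMAD3 and SMAD7 (y axes, from 0) in the libraries shBCAT1 1, shBCAT1 2 and control (x axis), with the RefSeq transcripts of a gene stacked in 1 bar. NM_002165 of ID1 is at 1.96 and 0.454 FPKM in the shBCAT1 libraries, against 1.63 FPKM in the control.

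By level, the members ran TGFB1, INHBA, ID3, ID1, SMAD3, FST, TGFBI and SMAD7 in shBCAT1 1. In shBCAT1 2 the order was TGFB1, ID3, INHBA, TGFBI, SMAD3, ID1, FST and SMAD7, and in the control INHBA, TGFB1, ID3, ID1, FST, SMAD3, TGFBI and SMAD7. Neighbours in these orders had overlapping bounds, except INHBA above ID3 and TGFBI above SMAD7 in shBCAT1 1, TGFB1 above ID3 in shBCAT1 2, and TGFB1 above ID3 and SMAD3 above TGFBI in the control. The bounds of INHBA and TGFB1 overlapped in shBCAT1 1 and in the control and lay apart in shBCAT1 2. TGFBI and FST lay apart in shBCAT1 2, with TGFBI higher, and in the control, with FST higher, and overlapped in shBCAT1 1. INHBA exceeded 90.6% and 78.6% of the genes detected in the shBCAT1 libraries, against 91.7% in the control.

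Across all genes, limma on log2(FPKM + 1) called 14 of 3889 lower in the shBCAT1 libraries than in the control at an adjusted p of 0.05 (0.36%) and 0 higher (0%). Unadjusted, 193 genes were lower and 25 higher at that threshold. The count of lower genes was 1 without loci under 300 bases and 0 with no minimum level. The fit has 1 residual degree of freedom and assumes that the control varies like the shBCAT1 libraries. Of the members, 5 reached the mean of 1 FPKM that it required: INHBA, TGFB1, SMAD3, ID1 and ID3. On that scale INHBA differed from the control by -0.33 and -1.21 in shBCAT1 1 and shBCAT1 2, below which lay 22.0% and 1.13% of all genes tested. The ID1 differences were 0.015 and -0.60, with 71.1% and 6.84% of genes below. For TGFB1 they were -0.15 and -0.066, for SMAD3 0.053 and 0.095, and for ID3 -0.089 and 0.025. All genes tested had medians of -0.12 and 0.0053.

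**Figure D4:**
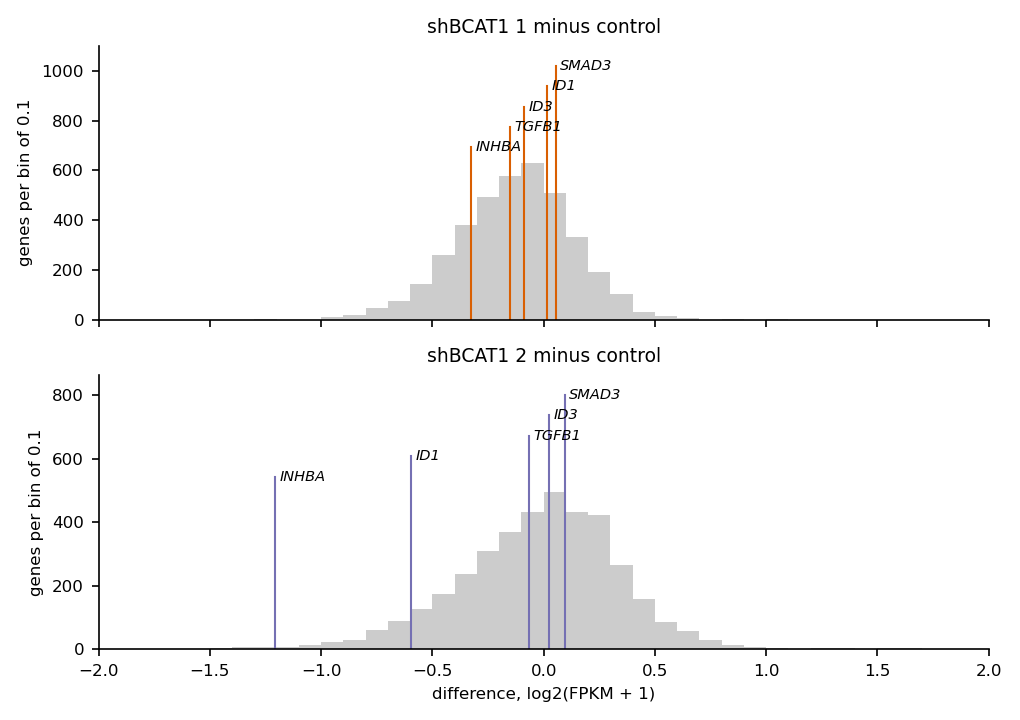
Number of genes per bin of 0.1 (y axis) by difference from the control in log2(FPKM + 1) (x axis) for the 3889 genes tested, shBCAT1 1 above and shBCAT1 2 below, with lines for the 5 members tested. INHBA lies at -1.21 and ID1 at -0.60 in shBCAT1 2, and TGFB1, SMAD3 and ID3 stay near the centre in both. A further 25 and 34 genes lie beyond a difference of 2 in either direction and are not drawn.

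The pattern nearest to a member's, by Euclidean distance between the differences of both shBCAT1 libraries from the control, was that of ROMO1 for INHBA, ENAH for TGFB1, PITPNM1 for SMAD3, GPX2 for ID1 and S100A16 for ID3. The search covered the genes tested at loci of 300 bases or more. Distances lay between 0.00383 and 0.0241 on the log2(FPKM + 1) scale, over 3 libraries. Since each is the smallest of many distances, a low value follows from the search, and nothing is read from it. ROMO1 was at 15.2 and 8.02 FPKM in the shBCAT1 libraries, against 19.5 FPKM in the control.

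The wider pathway was described with 133 genes in 10 lists by role, of which 125 are not members. Of those, 16 were tested and 0 passed limma in either direction, nor did any at an unadjusted p under 0.05. The smallest adjusted p by limma was 0.798, for TGIF1. The median difference of the 16 genes was -0.07 in shBCAT1 1, with 12 lower and 4 higher, and 0.24 in shBCAT1 2, with 5 lower and 11 higher. Of all 3889 genes tested, 2672 were lower and 1210 higher in shBCAT1 1, and 1906 were lower and 1977 higher in shBCAT1 2, so lower values were the more frequent ones in shBCAT1 1 among all genes too. The 96 of the 125 that were above 0 in any library included 0 with bounds apart from the control in shBCAT1 1. In shBCAT1 2 there were 0 below and 8 above it, among them NOG, LTBP2, LTBP3, THBS1, SKI and BHLHE40. Of all genes above 0 in any library 3.06% lay above. Of the 3889 genes tested 296 did, so the share differs with level and nothing is read from the count.

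Among targets of TGF-beta and activin, THBS1, a matrix protein that activates latent TGF-beta, was at 0.907 and 1.29 FPKM in the shBCAT1 libraries, against 0.874 FPKM in the control. JUNB, an AP-1 subunit gene, was at 5.68 and 5.37 FPKM in the shBCAT1 libraries, against 5.73 FPKM in the control. The 7 targets tested had a median difference of -0.01 in shBCAT1 1 and 0.34 in shBCAT1 2. The lists share genes, so their medians are not separate observations. THBS1 and LTBP2 are also in the list for latency and activation of TGF-beta, and PMEPA1 is also among the regulators of SMADs.

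Of the genes listed for latency and activation of TGF-beta, 5 were tested, among them LTBP2 as a relative of the latent TGF-beta binding proteins. All 5 had a higher value than the control in shBCAT1 2, and 3 did in shBCAT1 1. The same held for 1977 and 1210 of all 3889 genes tested. Bounds lay apart, higher, for LTBP2, LTBP3 and THBS1 in shBCAT1 2, as for 296 of all genes tested. In shBCAT1 1 none of the 5 lay apart, against 65 of all genes tested that were higher. LTBP3, a latent TGF-beta binding protein, was at 9.11 and 12.6 FPKM in the shBCAT1 libraries, against 9.21 FPKM in the control. LTBP2, a related matrix protein, was at 1.02 and 1.67 FPKM in the shBCAT1 libraries, against 0.908 FPKM in the control. FURIN, the protease that cleaves TGF-beta precursors, was at 2.57 and 3.77 FPKM in the shBCAT1 libraries, against 2.30 FPKM in the control, with bounds that overlapped the control's. The median difference of the 5 was 0.026 and 0.41.

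The 4 tested intracellular regulators of SMADs had median differences of -0.34 and -0.25. By value alone, 4 were lower than the control in shBCAT1 1 and 3 in shBCAT1 2, where 2672 and 1906 of all 3889 genes tested were lower. TGIF1, a corepressor of SMAD2 and SMAD3, was at 1.57 and 0.954 FPKM in the shBCAT1 libraries, against 2.23 FPKM in the control, as a sum over 11 entries with overlapping bounds. FKBP1A, which binds type I receptors and keeps them silent, was at 25.3 and 29.1 FPKM in the shBCAT1 libraries, against 34.3 FPKM in the control. STRAP, a receptor-associated protein, was at 4.02 and 4.30 FPKM in the shBCAT1 libraries, against 5.39 FPKM in the control. The bounds of FKBP1A and STRAP overlapped between all libraries. PMEPA1, a target that limits the signal, was at 4.54 and 5.87 FPKM in the shBCAT1 libraries, against 4.78 FPKM in the control. Its bounds, 3.97 to 9.89 and 2.96 to 10.2 against 4.26 to 5.30 FPKM, overlapped as well.

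**Figure D5:**
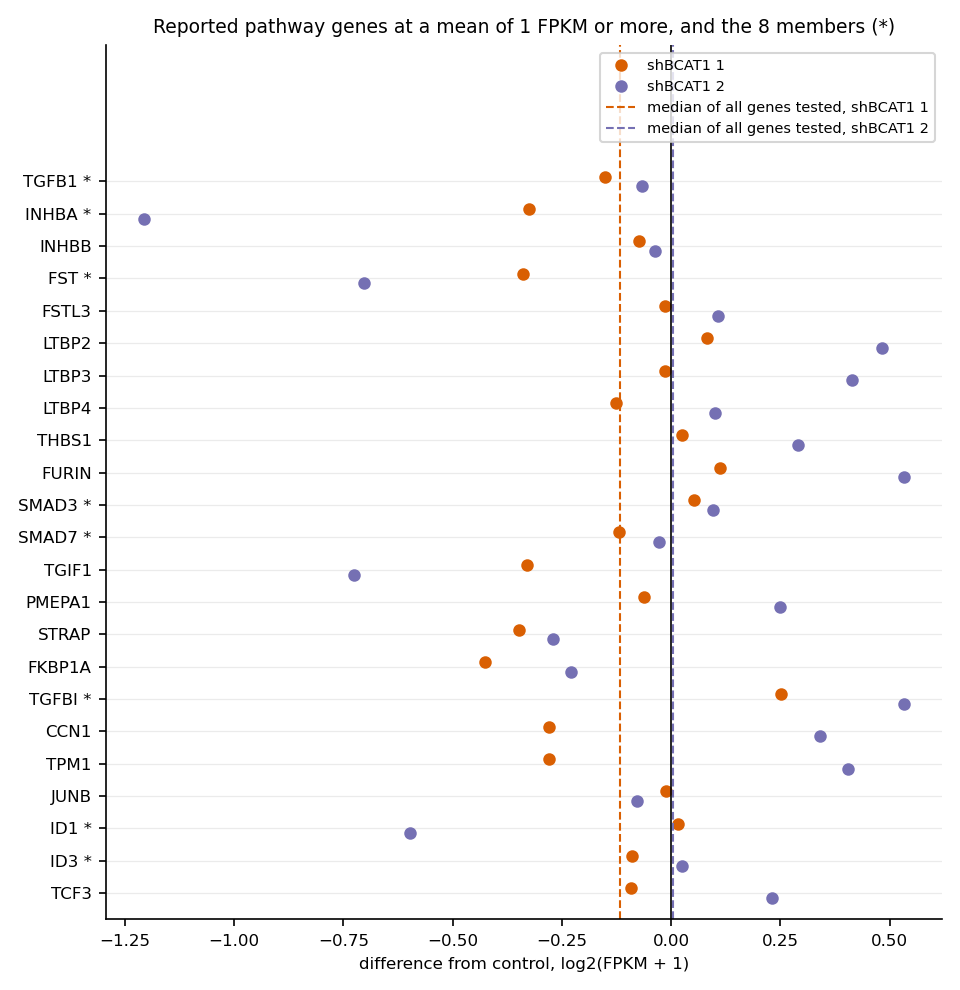
Difference from the control in log2(FPKM + 1) (x axis) for the members (asterisks) and the other pathway genes reported at a mean of 1 FPKM or more (y axis, by role), 1 point per shBCAT1 library, with dashed lines at the medians of all genes tested. In shBCAT1 2 INHBA lies at -1.21 and LTBP3 at 0.41, against -0.33 and -0.01 in shBCAT1 1.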

How the data were processed

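FPKM values, as the authors deposited them, come 1 per RefSeq accession and locus, each with confidence bounds on both sides and a status. Trim Galore, TopHat, Cufflinks and the build hg38 are named in the submitters' processing notes. These stand there with versions, settings, annotation and strand not given in the sources used here. FPKM scales by transcript length and total and gives no read counts.

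Of 50337 accessions, 49281 were named from RefSeq (GRCh38.p14) and 645 from GENCODE release 29; 411 kept their accession. Entries of a symbol were added up, with bounds combined as a root sum of squares. The 341 genes with a status other than OK were left out of tests. The SD of counting error is the distance from value to upper bound divided by 2, and the square of value over SD gives fragments. These were whole within 0.01 for 74.1%, 73.7% and 73.4% of genes with 1 entry in shBCAT1 1, shBCAT1 2 and the control. For genes with more than 1 entry the combined bounds also depend on how FPKM was divided between entries. There the SD is not counting error alone, and fragments are an equivalent width, not a count. PMEPA1, with 5 entries, had 2.87 at 4.54 FPKM in shBCAT1 1 and 334 at 4.78 FPKM in the control. Bounds cover no spread between libraries, and a library at 0 has bounds of 0 and is never called apart.

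Libraries were compared on log2(FPKM + 1) with limma 3.58.1 under R 4.3.3, a scale that understates the change of low genes, with an intensity trend, a minimum mean of 1 FPKM and Benjamini-Hochberg adjustment over all genes, two-sided. On simulated data the fit recovered the sizes of added differences, but called few of the smaller ones and made false calls above the nominal rate on average. Python 3.11.15, pandas 2.3.3, numpy 2.4.6 and matplotlib 3.10.9 were used. The members and lists were chosen with earlier results of these data known. Named genes are the members and, per list, up to 4 tested genes, ranked by the smaller of their differences where both libraries share a sign and then by level. Other pathway genes were named after their values were seen. FST, TGFBI and SMAD7 were below the minimum. Some genes of the lists count in the totals and medians and are not reported here by name.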

Additional observations from a re-analysis of the deposited data

How the results depend on the processing

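The count of genes lower by limma, 14, was 8 with the highest entry of each gene alone, 8 at a minimum mean of 5 FPKM, 1 without loci under 300 bases and 0 with no minimum. The count of genes higher, 0, was 1 with a pseudocount of 0.1. Leaving out an shBCAT1 library gave no limma count, since no residual degree of freedom is left. The 162 genes with bounds below the control in both libraries became 296 to 297 when 1 shBCAT1 library was left out. The 51 above it became 65 to 296, and were 16 at a minimum mean of 5 FPKM and 90 with the highest entry alone. For these counts of bounds, leaving out a library, and counting a library at 0 as apart, were chosen after seeing the data. Of 56 alternative values for members, 4 changed sign. With the highest entry alone the mean log2 difference of SMAD3 was -0.0215 and that of SMAD7 0.163, where sums gave 0.0743 and -0.0724. Without 1 shBCAT1 library ID1 ranged from -0.597 to 0.0151 and ID3 from -0.0885 to 0.0254. FST was -0.52 and TGFBI 0.39 with a pseudocount of 1, -1.02 and 0.83 with 0.1, and -0.17 and 0.12 with 5. A larger pseudocount shrinks the log2 difference of low genes by construction. The cause of the differences themselves was not tested. The signs of INHBA, FST, TGFB1 and TGFBI held under every pseudocount, scaling, entry and library setting. The mean difference of TGFB1, -0.109, was however near 0 with quantile normalization, at -0.00956. No paired analysis was possible, since the 1 control library cannot be matched to each shBCAT1 library. With 1 control library, a shift of the control cannot be told apart from a change in the shBCAT1 libraries.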

Other observations

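Values of 3 further pathway genes, chosen after their values were seen, are given because their FPKM was unlike in the shBCAT1 libraries. Between those libraries the bounds lay apart for BHLHE40 and overlapped for TAGLN and NOG. TAGLN, an actin-binding protein gene and a target of TGF-beta in smooth muscle, was at 1.01 FPKM (bounds 0.486 to 1.54) in shBCAT1 1 and 0.319 FPKM (0.0336 to 0.618) in shBCAT1 2, against 1.11 FPKM (0.556 to 1.68) in the control. BHLHE40, a transcription factor gene, was at 0.273 FPKM (0.116 to 0.431) in shBCAT1 1 and 1.08 FPKM (0.773 to 1.38) in shBCAT1 2, against 0.352 FPKM (0.170 to 0.534) in the control, on 12, 50 and 15 fragments. NOG, which encodes the BMP antagonist noggin, was at 0.306 FPKM (0.0895 to 0.522) in shBCAT1 1 and 0.723 FPKM (0.399 to 1.05) in shBCAT1 2, against 0.197 FPKM (0.0208 to 0.373) in the control.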
